A study of Mus musculus with 4 samples.

Results

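The mesothelial marker genes described here are mesothelin (Msln), uroplakin 3B (Upk3b), uroplakin 1B (Upk1b), the transcription factor Wilms tumour 1 (Wt1) and the leucine-rich repeat membrane protein Lrrn4. They are 5 of the 41079 genes in the table of raw read counts, were matched by gene symbol, and were chosen by measured values, since earlier counts of these same libraries were known when the list was drawn up. Each member's difference between libraries is therefore given as a description. In each comparison, all 5 members passed the filter of 10 reads in whichever library had more.

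Mesothelial cells form the single flat layer that lines the pleural cavity and covers the lung, and related cells cover the heart, the abdominal organs and the body wall. They are epithelial in form but derive from mesoderm, they secrete a lubricating fluid, and after injury or inflammation they can lose their epithelial features and take on those of mesenchymal cells. In a whole-lung RNA preparation they are a minor surface population, and their markers come from the pleural edge and from any lining tissue that was collected with it.

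The data are 4 RNA-seq libraries of mouse lung, 1 from wild type (WT) and 1 from Rab44-knockout (KO) mice under normal conditions, and 1 of each genotype after ovalbumin (OVA)-induced allergic airway inflammation. Rab44 is a large Rab GTPase of granulocytes and mast cells, and the KO line was made by CRISPR/Cas9 on a C57BL/6 background and compared with age-matched littermates. The mice of the study's animal experiments were females of 8 to 14 weeks. OVA-induced mice received intraperitoneal injections of 100 µg OVA and alum on days 0, 7 and 14 and then 100 µg OVA in 50 µL by the nose on days 17 to 20, before the lungs were taken on day 21. The labels describe the normal mice as untreated, although the shared protocol also names a saline challenge, and how many mice gave each library is not stated in the sources used here. The study asked how loss of Rab44 alters lung gene expression in either state. With 1 library per condition there was no replicate check of any difference, so no test was made, and every interval printed here is an exact 95% interval that covers counting error only.

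The libraries held 18112901 to 19910236 counts. Rab44 had 251 counts in normal WT and 810 in OVA-induced WT against 1 and 0 in the corresponding KO libraries. The 10 most abundant genes took 6.07% to 7.40% of counts. The alveolar type 2 marker Sftpc, which defines the tissue, stood at 9290 to 18690 CPM (counts scaled to a common library size by the trimmed mean of M-values, TMM). In whole tissue, fewer cells of a type and less RNA per cell cannot be told apart.

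The members lie at separate places in the mouse genome (GRCm38, GENCODE annotation), with positions given from an annotation that was not shown to be the one used for counting. Msln is on chromosome 17 from 25748613 to 25754378 on the minus strand with 9 transcripts. Upk3b is on chromosome 5 from 136038496 to 136046487 on the plus strand with 1 transcript. Upk1b is on chromosome 16 from 38773184 to 38800328 on the minus strand with 2 transcripts. Wt1 and Lrrn4 share chromosome 2 but are far apart, Wt1 from 105126529 to 105173616 on the plus strand with 9 transcripts and Lrrn4 from 132868305 to 132880891 on the minus strand with 1. In this annotation no gene overlapped any member on either strand, and 0 windows of 150 bases, the read length, were shared between a member's exons and any other gene's.

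Promoters are shown for Upk3b and Lrrn4, the members matched in the promoter table used here, so that the sequence before a mesothelial gene can be read. The 250 bases before each start come from RefSeq (GRCm38.p6), 5′ to 3′ on the gene's own strand. The Upk3b stretch is chr5:136038246-136038495 on the plus strand with 60.8% G and C, and the Lrrn4 stretch is chr2:132880863-132881112 on the minus strand with 59.2%. The RefSeq start used for Lrrn4 lies slightly inside the GENCODE gene given above, and its distances count from that start. RefSeq lists 3 Lrrn4 transcripts, and its gene reaches further upstream, to 132894010, so other starts exist that are not shown. Capitals mark the letters GGAATG, read on either strand, which is the core recognised by TEAD factors.
Upk3b: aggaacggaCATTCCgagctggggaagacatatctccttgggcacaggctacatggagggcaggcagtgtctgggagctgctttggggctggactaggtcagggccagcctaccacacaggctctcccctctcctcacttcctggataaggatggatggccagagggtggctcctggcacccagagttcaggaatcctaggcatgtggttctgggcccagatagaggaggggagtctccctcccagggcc
Lrrn4: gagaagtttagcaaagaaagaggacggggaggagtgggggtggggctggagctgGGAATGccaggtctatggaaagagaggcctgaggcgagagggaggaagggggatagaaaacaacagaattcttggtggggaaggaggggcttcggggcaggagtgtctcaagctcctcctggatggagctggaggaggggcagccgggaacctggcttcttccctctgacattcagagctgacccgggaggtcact
These letters stood 241 to 236 bases before the Upk3b start on the reverse strand and 196 to 191 bases before the Lrrn4 start on the forward strand. The same letters occurred in 12.6% of the 32536 mouse promoters of this length. The WT1 letters GCGTGGGAG (in 0.409% of promoters), their shorter core GTGGGAG (8.25%) and the GC box GGGCGG of Sp factors (33.0%), none of which contains GGAATG, were not found in either window.

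Msln, Upk3b and Lrrn4 were lowest in normal WT lung and higher in the other 3 libraries, whereas Upk1b stayed within a narrow range. Msln, a surface glycoprotein anchored in the mesothelial membrane, had 26.0 CPM in normal WT, 53.3 in normal KO and, after OVA induction, 81.7 in WT and 69.5 in KO. Upk3b, a membrane protein of the uroplakin family that in the lung marks mesothelium, had 26.2, 53.2, 67.5 and 63.2 CPM in the same order. Both genes were thus lowest in normal WT, intermediate in normal KO and higher in both OVA-induced libraries, whose order turned in TPM. Lrrn4, a membrane protein first known from neurons and used as a mesothelial marker, had 4.79, 15.3, 13.0 and 21.3 CPM, so that normal KO stood above OVA-induced WT and OVA-induced KO was highest. Upk1b, a tetraspanin that pairs with other uroplakins in the bladder lining, had 37.2, 35.1, 41.0 and 44.1 CPM. Wt1, which is needed for the development of mesothelium and of the gonad and kidney, had 0.937, 1.53, 2.58 and 3.59 CPM. These Wt1 values rest on 18, 28, 50 and 70 reads, the fewest of any member, and each was higher than the one before in this order.

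**Figure D1:**
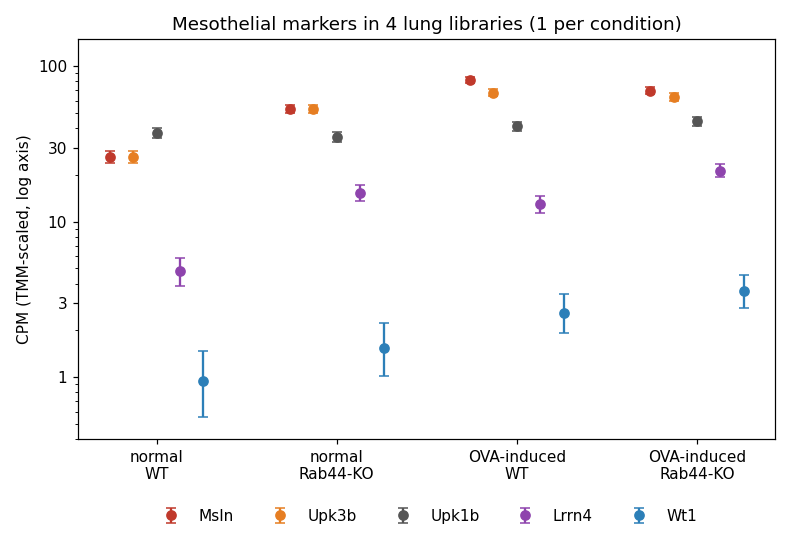
CPM of the 5 mesothelial markers (log axis) in each of the 4 libraries, with vertical bars for the exact 95% Poisson interval of the count. Msln lay at 26.0 CPM in normal WT and at 81.7 in OVA-induced WT, while Upk1b lay between 35.1 and 44.1 CPM in every library.

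In TPM, which also corrects for transcript length and so lets the levels of different genes be compared, the order of the members was not the same in every library. In normal WT, Upk1b led with 47.1 TPM, ahead of Upk3b with 30.6 and Msln with 28.4. The last of these were not set apart by their counts, with an Upk3b to Msln TPM ratio of 1.08 [0.951, 1.22]. In the other 3 libraries Upk1b ranked behind both genes. In normal KO, Upk3b had 63.3 TPM, Msln 59.2 and Upk1b 45.2, and Upk3b and Msln again were not apart, at a ratio of 1.07 [0.977, 1.17]. In OVA-induced WT, Msln had 79.0 TPM, Upk3b 69.9 and Upk1b 45.9, and Msln stood above Upk3b by a ratio of 1.13 [1.05, 1.22]. In OVA-induced KO the values were 84.3, 82.0 and 62.0 TPM, with a Msln to Upk3b ratio of 1.03 [0.951, 1.11]. Lrrn4 held the next rank in every library, from 3.06 TPM in normal WT to 15.1 in OVA-induced KO, and Wt1 was lowest in all 4, from 0.721 to 3.07 TPM.

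Under normal conditions, Rab44-KO lung had 3 of the 5 markers over 2-fold above the WT level, against 2.77% of the 18718 genes that passed the count filter, and 0 over 2-fold below it, against 2.0%. Lrrn4 went from 92 to 279 counts, a log2 fold change of 1.67 [1.33, 2.03], or 3.19-fold. Msln went from 500 to 972 counts, at 1.03 [0.88, 1.19] or 2.04-fold, and Upk3b from 504 to 971 counts, at 1.02 [0.86, 1.18] or 2.03-fold. Msln and Upk3b thus lay just past the 2-fold line, with the lower ends of their intervals under it. Upk1b, with 715 and 641 counts, gave −0.08 [−0.24, 0.07]. Wt1, with 18 and 28 counts, gave 0.71 [−0.19, 1.65], so that its difference was not detectable at this depth. The median over the members was 1.02, beside 0.00429 over all genes. Among the 13166 genes with at least 100 counts, where counting noise is small, 0.334% were over 2-fold higher in KO. These shares stand beside values that had a part in choosing the members and support nothing by themselves.

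Under OVA-induced conditions, 0 of the 5 markers passed 2-fold between the genotypes in either direction, while 8.40% of the 19259 genes compared were over 2-fold higher in KO and 7.34% over 2-fold lower (3.64% higher among genes with at least 100 counts). Lrrn4 had the largest difference of the members, with 251 counts in WT and 416 in KO, a log2 fold change of 0.72 [0.49, 0.95] that passed 2-fold in TPM, at 1.04. Msln, with 1582 and 1355 counts, gave −0.23 [−0.34, −0.13] on the CPM scale, which turned to 0.09 in TPM and also turned positive once the length trend described next was removed. Upk3b, with 1308 and 1232 counts, gave −0.10 [−0.21, 0.02] and turned to 0.23 in TPM, and it also turned positive relative to lung-resident genes and without the length trend. Upk1b gave 0.11 [−0.04, 0.25] from 794 and 860 counts, and Wt1 gave 0.47 [−0.07, 1.03] from 50 and 70 counts. The median of the members was 0.11, beside −0.02 over all genes. In this pair of libraries the fold change moved with transcript length across all genes, from a median of −0.44 in the shortest 20% of genes to 0.37 in the longest 20%. At the transcript lengths of Msln, Upk3b and Upk1b the trend stood at −0.29, −0.32 and −0.27, as large as or larger than the difference of each gene.

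**Figure D2:**
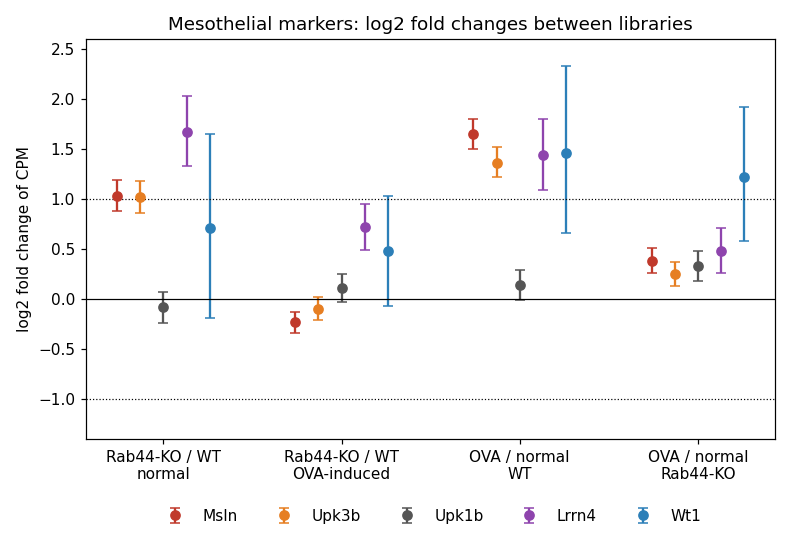
Log2 fold change of the 5 markers in the 4 comparisons, with bars for the exact 95% interval of the count ratio and lines at 2-fold. In normal lung Lrrn4, Msln and Upk3b lie past the 2-fold line at 1.67, 1.03 and 1.02, and under OVA-induced conditions no marker does.

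After OVA induction, the WT lung had 4 of the 5 markers over 2-fold above its normal level, against 8.99% of the 19023 genes compared (5.79% of those with at least 100 counts), and 0 over 2-fold below it, against 5.20%. The log2 fold change was 1.65 [1.50, 1.80] or 3.14-fold for Msln, the largest of the members. Lrrn4 gave 1.43 [1.09, 1.80] or 2.70-fold, and Upk3b gave 1.36 [1.21, 1.51] or 2.57-fold. Wt1, at 1.46 [0.66, 2.33] or 2.74-fold, had an interval away from 0 in spite of its low counts. Upk1b gave 0.14 [−0.01, 0.29], a value that turned to −0.04 in TPM. The median of the members was 1.43, beside 0.00366 over all genes. The normal WT library is the base of this comparison and of the comparison of genotypes in normal lung, so a low level in that library enters both.

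In Rab44-KO lung, Wt1 was the only marker of the 5 more than 2-fold higher after OVA induction, at 1.22 [0.58, 1.91] or 2.33-fold, against 6.44% of the 19073 genes compared (2.40% of those with at least 100 counts), and 0 were over 2-fold lower, against 3.85%. Lrrn4 gave 0.48 [0.26, 0.71], Msln 0.38 [0.26, 0.50], Upk1b 0.33 [0.18, 0.48] and Upk3b 0.25 [0.13, 0.37]. All 5 intervals lay above 0, and the median was 0.38, beside −0.00829 over all genes. In WT lung 4 of the 5 intervals lay above 0, Upk1b being the exception.

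The difference between these responses, KO minus WT on the log2 scale, was −1.27 [−1.46, −1.07] for Msln, −1.12 [−1.31, −0.92] for Upk3b and −0.95 [−1.38, −0.53] for Lrrn4. It was 0.19 [−0.02, 0.40] for Upk1b and −0.23 [−1.33, 0.84] for Wt1. Counting error alone thus did not cover the difference for the first 3 genes and did for the others. No replicate error could be set against any of these values.

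Within a library, the ratio of a member to Upk1b does not depend on the scaling of that library. Msln had 0.699 [0.623, 0.785] counts per Upk1b count in normal WT, 1.52 [1.37, 1.68] in normal KO and, after OVA induction, 1.99 [1.83, 2.17] in WT and 1.58 [1.45, 1.72] in KO. For Upk3b the ratios were 0.705, 1.51, 1.65 and 1.43, and for Lrrn4 they were 0.129, 0.435, 0.316 and 0.484. For all 3 genes the interval in normal WT lay below the intervals of the other 3 libraries. The Wt1 ratios were 0.0252, 0.0437, 0.0630 and 0.0814, and the intervals of neighbouring libraries in this order overlapped. Msln and Upk3b had similar counts in the normal libraries and more Msln than Upk3b counts after OVA induction, with a Msln to Upk3b ratio of 0.992 [0.875, 1.12] in normal WT, 1.0 [0.915, 1.10] in normal KO and, after OVA induction, 1.21 [1.12, 1.30] in WT and 1.10 [1.02, 1.19] in KO. Lrrn4 did not keep step with Upk3b, since its ratio was 0.183 and 0.192 in the WT libraries and 0.287 and 0.338 in the KO libraries, with no overlap of the intervals between genotypes. Such ratios are not free of the length trend. Once it was removed, the genotype values under OVA-induced conditions were 0.77 for Lrrn4 and 0.22 for Upk3b, closer together than the main values of 0.72 and −0.10.

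**Figure D3:**
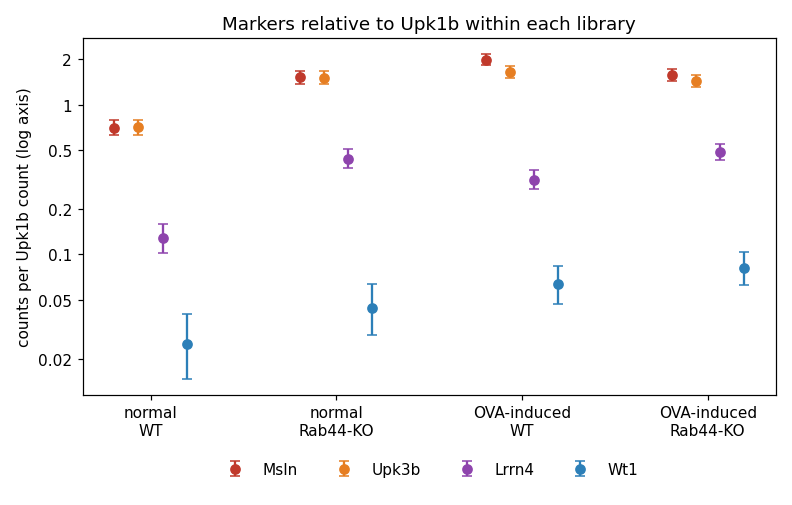
Counts of Msln, Upk3b, Lrrn4 and Wt1 per count of Upk1b in each library (log axis), with exact 95% intervals of the count ratio. Normal WT was lowest for all 4 genes, at 0.699 for Msln, 0.705 for Upk3b, 0.129 for Lrrn4 and 0.0252 for Wt1.

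A further 20 genes known from mesothelium were read in the same way, of which 17 passed the filter of 10 counts in each comparison. Upk3bl, Calb2 and Wt1os, an antisense RNA at Wt1, had at most 4 counts in any library. Calb2 encodes calretinin, a marker of human mesothelium, so the label rests here on the other markers. In normal lung 1 of the 17 was over 2-fold higher in KO and 0 lower, the median was 0.39, and the interval lay above 0 for 9 genes and below 0 for 3. The shares of all genes past 2-fold are those given above for each comparison. Under OVA-induced conditions 1 was over 2-fold higher in KO and 0 lower, with a median of 0.13 and intervals above 0 for 7 genes and below 0 for 5. In the OVA response 4 were over 2-fold higher and 0 lower in WT, with a median of 0.12, and likewise 4 higher and 0 lower in KO, with a median of 0.10. The response intervals lay above 0 for 9 genes and below 0 for 3 in WT, and above 0 for 7 and below 0 for 6 in KO. The WT median turned to −0.05 in TPM, and the KO median to −0.04 without the length trend. Igfbp5, Igfbp6, Efemp1, Gas1, Sulf1 and Bnc2 of this list are also well known from fibroblasts.

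Transcription factors and signals of the mesothelium included genes that were lowest in normal WT, as Msln was. Bnc1, the zinc finger protein basonuclin 1, had 17 counts in normal WT, 61 in normal KO and, after OVA induction, 56 in WT and 51 in KO. It was therefore the gene of the list past 2-fold between genotypes in normal lung, at 1.91 [1.12, 2.79]. Its OVA response was 1.70 [0.90, 2.58] in WT and −0.35 [−0.92, 0.21] in KO. Aldh1a2, the retinaldehyde dehydrogenase that makes retinoic acid in mesothelium, had 137, 249, 570 and 538 counts. Its genotype difference in normal lung was 0.93 [0.63, 1.25], just inside 2-fold, and its OVA response was 2.04 [1.77, 2.32] in WT and 1.02 [0.80, 1.24] in KO, where thinning to the smallest library gave 0.99. Rspo1, a secreted enhancer of WNT signalling, had 243, 333, 381 and 287 counts, so its genotype difference was 0.53 [0.28, 0.77] in normal lung and −0.42 [−0.64, −0.19] under OVA-induced conditions, or −0.09 in TPM. The related factor Bnc2 gave 0.54 [0.23, 0.86] and 0.59 [0.29, 0.90] in the same comparisons, and the second value became 0.13 without the length trend and 0.87 in TPM.

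The junction gene Cldn15 and the surface gene Muc16 were also lowest in normal WT. Cldn15, a tight junction claudin, had 74, 119, 265 and 291 counts in the same order of libraries. Its OVA response was 1.83 [1.45, 2.22] in WT and 1.19 [0.88, 1.51] in KO. Muc16, the membrane mucin that binds mesothelin, had 111, 166, 227 and 485 counts. It was the gene of the list over 2-fold higher in KO under OVA-induced conditions, at 1.09 [0.86, 1.32], or 0.53 once the length trend was removed. Its OVA response was 1.02 [0.69, 1.36] in WT, or 0.74 in TPM, and 1.45 [1.19, 1.71] in KO. Relative to its partner, Muc16 had 0.222 counts per Msln count in normal WT, 0.171 in normal KO and, after OVA induction, 0.143 in WT and 0.358 [0.322, 0.397] in KO. The interval of the last library lay above those of the other 3, although the log2 difference in this ratio between the OVA-induced libraries went from 1.32 to 0.47 once the length trend was removed. Prg4, the lubricant lubricin, had 86, 80, 129 and 221 counts, with an OVA response of 0.57 [0.17, 0.98] in WT and 1.37 [1.0, 1.76] in KO.

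Other genes of the same list were nearly level, as Upk1b was. Gpm6a, a membrane glycoprotein, had 1477, 1840, 1619 and 1812 counts, and its 4 log2 fold changes lay between −0.12 and 0.39. The values for Nkain4 (594, 500, 586 and 461 counts), an interactor of the sodium pump, lay between −0.36 and −0.03. Anxa8, an annexin, had 863, 702, 892 and 806 counts and values between −0.22 and 0.10. For each of these 3 genes, at least 1 of the 4 signs turned under another scaling. The secreted binding protein Igfbp5 gave the most counts of the list, 4884, 7952, 6873 and 10977, and was higher in KO in both states, at 0.78 [0.72, 0.83] and 0.67 [0.62, 0.71]. Sulf1, an extracellular sulfatase, gave 0.59 [0.45, 0.72] and 0.55 [0.43, 0.67] in the same comparisons, the second value becoming 0.33 without the length trend and 0.87 in TPM. Other genes had intervals below 0 in the KO response, with Cybrd1 (390, 425, 336 and 301 counts) at −0.59 [−0.81, −0.38], Efemp1 (2698, 2595, 2257 and 2043) at −0.44 [−0.52, −0.36] and Gas1 (911, 874, 883 and 692) at −0.43 [−0.58, −0.29]. In the WT response these genes gave −0.23 [−0.44, −0.01], −0.27 [−0.35, −0.19] and −0.06 [−0.19, 0.08]. In CPM, the members Msln, Upk3b, Lrrn4 and Wt1 were lowest in normal WT, and Upk1b was not. Of the further genes, Bnc1, Aldh1a2, Cldn15, Muc16, Rspo1, Gpm6a, Igfbp5, Sulf1 and Bnc2 were also lowest there. Nkain4, Anxa8, Lrrn4cl (76, 81, 63 and 79 counts), Prg4, Gas1, Igfbp6, Efemp1 and Cybrd1 were not, so the list was divided.

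**Figure D4:**
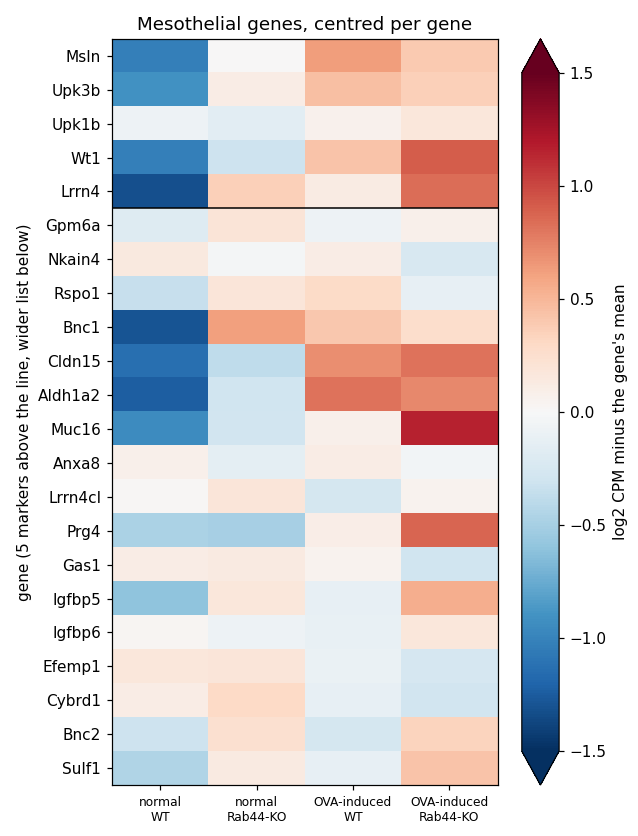
Heat map of log2 CPM minus each gene's mean over the 4 libraries (columns), for the 5 members above the line and the 17 further mesothelial genes with enough counts below it (colour scale in log2 units). Lrrn4, Bnc1, Aldh1a2, Cldn15 and Msln are dark blue in normal WT, at −1.02 for Msln and −1.29 for Bnc1, while the rows of Upk1b, Nkain4 and Anxa8 stay pale, and Muc16 reaches 1.16 in OVA-induced KO.

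Most relatives of the members by sequence family had few counts in these lungs. Among uroplakins, Upk1a had 28 to 52 counts, Upk2 had 4 to 23 and Upk3a had 10 to 12. These bladder uroplakins were thus counted far less often than Upk1b and Upk3b. Of the LRRN family, Lrrn1 had 3 to 8 counts and Lrrn2 16 to 43. Lrrn3, with 493, 406, 190 and 157 counts, had more counts than Lrrn4 in the normal libraries and fewer in the OVA-induced libraries. It was over 2-fold lower after OVA induction in both genotypes, at −1.39 [−1.64, −1.14] in WT and −1.47 [−1.74, −1.20] in KO, while Lrrn4 was higher. The mesothelin relatives Mslnl and Otoa had at most 7 counts, and Strc, which encodes stereocilin of the inner ear, had 4 to 6 counts in 3 libraries and 22 in OVA-induced KO.

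Epithelial genes that mesothelium shares with the lung epithelium, 11 in all and also expressed by the far larger epithelium, had medians between −0.20 and 0.08. Keratins showed no 2-fold difference, and Krt19 gave values between −0.35 and 0.05. The secreted inhibitor Slpi was over 2-fold lower in KO under OVA-induced conditions, at −1.67 [−1.81, −1.53], and its OVA response was 2.43 [2.26, 2.61] in WT and 0.39 [0.20, 0.58] in KO. Complement C3 was over 2-fold higher after OVA induction in both genotypes, at 1.94 [1.91, 1.98] and 1.03 [1.01, 1.06]. Of 12 genes tied to the passage of mesothelial cells to a mesenchymal state, 11 had enough counts, and none was over 2-fold higher in any of the 4 comparisons. Over all genes 2.77% to 8.99% were, so a count of 0 among 11 does not set these genes apart. Snai1, a repressor of epithelial genes, was over 2-fold lower after OVA induction in WT, at −1.01 [−1.30, −0.72], and in KO, at −1.09 [−1.41, −0.78], but relative to lung-resident genes these values were −0.82 and −0.94, inside 2-fold.

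Markers of tissues that carry or adjoin a mesothelial layer also differed between the libraries. The members summed to 95.3 CPM in normal WT, 158 in normal KO and, after OVA induction, 206 in WT and 202 in KO, or 1.66, 2.16 and 2.12 times the level in normal WT. Heart muscle markers, 10 genes from a tissue that epicardium covers, summed to 779, 862, 343 and 763 CPM in the same order. All 10 were detected in every library, and 8 were over 2-fold lower in OVA-induced WT than in normal WT, against 5.20% of all genes compared. Adipocyte markers, 8 genes, summed to 103, 150, 28.9 and 52.1 CPM, and 1 of the 8 stood at 0 in normal KO. Of the 7 with enough counts, 6 were over 2-fold lower in the WT response, against 5.20% of all genes. In the KO response 5 were, against 3.85%. In normal lung the adipocyte sum was 1.46 times as high in KO as in WT and the heart sum 1.11 times. Gene by gene, 1 of 7 adipocyte markers was over 2-fold higher there (2.77% of all genes), with a median of 0.62, and 0 of 10 heart markers, with a median of 0.15. Under OVA-induced conditions 5 of 10 heart markers and 3 of 6 adipocyte markers were over 2-fold higher in KO (8.40% of all genes). Their medians were 1.05 and 1.08. The part of collected heart or fat tissue in the members' values was not tested.

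Apart from leukocytes, the lists of lung cells stood at 0.702 to 1.46 times their normal WT level. The sum of the 20 further mesothelial genes lay inside this range, at 1.26 in normal KO and, after OVA induction, 1.13 in WT and 1.42 in KO. The higher ratios of the 5 members thus did not extend to the sum of that list. Relative to normal WT, alveolar type 1 markers summed to 0.929 in normal KO and, after OVA induction, 0.731 in WT and 0.722 in KO. The same ratios were 1.0, 1.46 and 0.890 for alveolar type 2 cells, and 1.0, 0.981 and 0.789 for fibroblasts. For endothelium they were 1.0, 0.737 and 1.16, for airway club and ciliated cells 1.01, 0.702 and 0.809, and for smooth muscle 0.941, 0.974 and 0.917. Some sums rest mostly on 1 gene. In normal WT, Sftpc gave 13657 of the 22180 CPM for alveolar type 2 cells, and Scgb1a1 gave 22962 of the 26428 CPM for airway cells. Gene by gene, the type 2 median in the KO response was 0.09, with intervals above 0 for 6 genes and below 0 for 4. Leukocyte markers stood at 1.06, 2.51 and 2.14. Gene by gene, 4 of the 8 leukocyte markers were over 2-fold lower in KO than in WT under OVA-induced conditions, with a median of −0.77, and the median OVA response was 1.50 in WT and 0.59 in KO. In the same comparison of genotypes, 3 of 10 endothelial markers were over 2-fold higher in KO, and 2 of 10 fibroblast and 1 of 10 alveolar type 2 markers over 2-fold lower. Over all genes the shares were 8.40% higher and 7.34% lower. Between the normal libraries, none of the lists of alveolar, fibroblast, endothelial, airway, smooth muscle or leukocyte markers had a gene past 2-fold in either direction. Skeletal muscle markers summed to 10.3 to 18.7 CPM with Myh4 at 0 in all 4 libraries, thymus markers summed to 7.71 to 15.3 CPM, and cartilage markers summed to at most 1.20 CPM with Acan and Col9a1 at 0 in all 4.

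**Figure D5:**
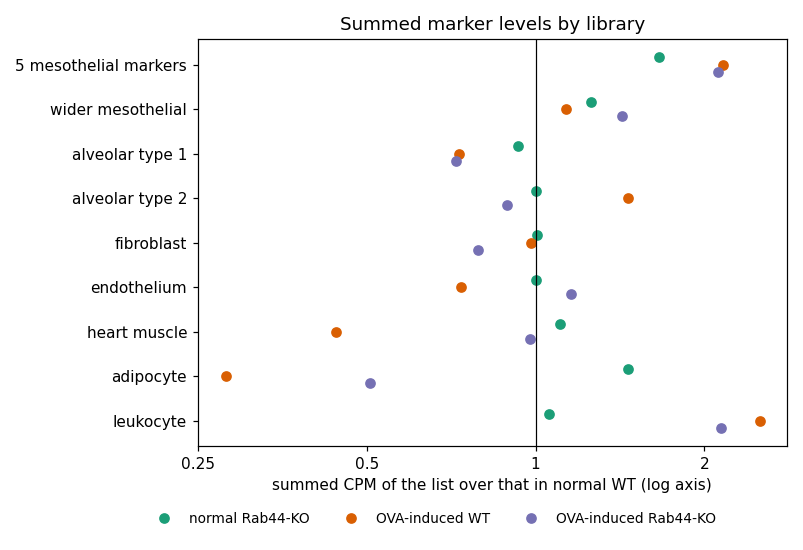
Summed CPM of 9 marker lists relative to the normal WT library (log axis), with 1 point for each of the other 3 libraries. In the order normal KO, OVA-induced WT, OVA-induced KO, the mesothelial members lie at 1.66, 2.16 and 2.12, leukocytes at 1.06, 2.51 and 2.14, heart muscle at 1.11, 0.441 and 0.979, and adipocytes at 1.46, 0.281 and 0.506. The wider mesothelial list lies at 1.26, 1.13 and 1.42 in the same order.

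Genes other than the members with the most similar course over the 4 libraries were sought among 13895 genes with at least 100 counts in their highest library, by the Euclidean distance between log2 CPM values centred on each gene's mean. Nearest to the mean of the members were Klf2, a transcription factor of endothelium and lymphocytes (distance 0.105, with 2401, 4039, 5095 and 5992 counts), Tmc5 (0.180, with 51, 91, 126 and 123) and the calcium channel gene Cacna1h (0.242). The other genes among the nearest 10 were Adgrg5, Cacna1e, Ramp3, Gm16170, C4b, Pkhd1l1 and Atp6v0a4. For single members the nearest gene was Gsdme for Msln (0.226), Tmc5 for Upk3b (0.0878), Tspan5 for Upk1b (0.0205), Spaar for Wt1 (0.188) and Gm36882 for Lrrn4 (0.537). Of the 5 members, Lrrn4 had the most distant nearest gene outside the list. The members themselves were left out of this search, and with 4 points a close match is a description of these libraries.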

How the data were processed

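RNA from mouse lung was sequenced in 4 libraries, 1 per condition. The authors prepared directional libraries, read both ends of the fragments (150 bp each), used HISAT2 for alignment to GRCm38 and featureCounts for counting per gene, and compared libraries with DESeq2. Versions, the strand setting and the treatment of reads with several matches are not given in the sources used here. The deposited table held raw counts for 41079 genes, and the deposited TPM table held values scaled by the authors to transcript length and depth. All value columns were matched to a library, and 0 were left unmapped. Gene starts in the deposited table differed from the GRCm38 annotation, so positions were taken from GENCODE on GRCm38.

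Counts were scaled by TMM (edgeR 4.0.16, R 4.3.3). Fold changes are log2 ratios of these CPM values, a prior count of 0.125 being added first, and the interval is the exact Clopper-Pearson interval (95%) of the count ratio. PCR duplicates were not marked by molecular identifiers, so intervals cover counting error only. A gene was compared where either library had 10 or more counts, and was over 2-fold at an absolute log2 fold change above 1. The difference between responses has the exact interval of the conditional odds ratio. A count of 0 was read against a floor of 3 counts, or 0.154 to 0.164 CPM, which is lower than the upper end of the exact interval of a count of 0. Tables and figures were made with Python 3.11.15, numpy 2.4.6, pandas 2.3.3, scipy 1.17.1 and matplotlib 3.10.9. On simulated counts, 200 of 200 changed genes were recovered in each of the 4 comparisons over 41079 genes. The planted changes all lay well past the 2-fold line, in genes with many counts and with counting error only, and TMM was not applied. Full recovery was therefore assured, and it does not bear on smaller changes, low counts or spread between mice.

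The members, gene lists and thresholds were chosen with earlier results of these data known. The genes named are the members, the genes of the mesothelial, epithelial, transition and family lists, at most 2 genes of each other marker list, and the genes nearest in course (the 10 nearest to the members' mean and the 3 nearest to each member). Myh4, Acan and Col9a1 were named after their values were seen, because they stood at 0. The alternatives were DESeq2 1.42.0 size factors, total counts, TMM on the compared pair, scaling to lung-resident genes (the alveolar, fibroblast and endothelial lists), a prior count of 2, TPM with a pseudocount of 0.1, thinning to the smallest library, minimum counts of 1 and 50, log2 thresholds of 0.5 and 2, an interval wholly past 2-fold and, added after seeing the data, removal of the trend with transcript length.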

Additional observations from a re-analysis of the deposited data

Results flagged for a closer look

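Msln was higher in KO than in WT under normal conditions, with a log2 fold change of 1.03, and lower under OVA-induced conditions on the CPM scale, at −0.23, with both counting intervals away from 0. The difference of these values was −1.27. The sign under OVA-induced conditions turned in TPM and once the trend with transcript length was removed.

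Of the further mesothelial genes, 3 also had opposite directions with both counting intervals away from 0. Rspo1 gave 0.53 in normal and −0.42 in OVA-induced lung between genotypes, and 0.64 in WT and −0.31 in KO for the OVA response, a difference of −0.95 in both readings, but its value between genotypes in OVA-induced lung became −0.09 in TPM. Igfbp6 gave −0.10 and 0.28 between genotypes and −0.13 and 0.24 for the response, a difference of 0.38, and its WT response turned positive relative to lung-resident genes. Gpm6a gave an OVA response of 0.12 in WT and −0.12 in KO, a difference of −0.24, and both signs turned in TPM. With 1 library per condition, none of these differences was tested.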

How the results depend on the processing

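No paired analysis was possible because the labels give 1 library per condition and no shared replicate numbers, and for the same reason no replicate could be left out. Of 440 alternative values for 45 results, 384 stayed close to the main value (inside its counting interval or, for a count of genes, within 1.5 times), 56 moved further, and 0 differences past 2-fold changed sign. The tally includes values that could hardly move. Members over 2-fold lower numbered 0 under every setting, and the wide counting intervals of Wt1 held all of its values. The share that stayed close is therefore no measure of how firm the results are. The normal genotype differences of the members held closest, with Msln at 1.03 to 1.07, Upk3b at 1.0 to 1.04 and Lrrn4 at 1.62 to 1.68 over the scalings. The scalings moved the median of all genes by 0.33 (TPM) and 0.21 (lung-resident genes) in the OVA genotype comparison, by −0.17 and 0.18 in the WT response and by 0.12 and 0.15 in the KO response.

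For the members, the OVA genotype median became 0.31 relative to lung-resident genes, 0.43 in TPM and 0.37 without the length trend (an alternative chosen after seeing the data), and the KO response median became 0.54 and 0.51 with the first pair. Of the members, 1 passed 2-fold in the OVA genotype comparison in TPM, and 1 did at a log2 threshold of 0.5. At a threshold of 2, members past it numbered 0 in normal lung, 0 in the WT response and 0 in the KO response. With the whole interval past 2-fold, 1 member was left in normal lung and 0 in the KO response. The response difference became −0.96 for Msln, −0.81 for Upk3b and 0.49 for Upk1b in TPM, and −1.03 for Msln and −0.84 for Upk3b without the length trend. For the wider list, genes over 2-fold higher numbered 3 in normal lung and 2 in the OVA comparison at a minimum count of 1, 8 and 5 at a threshold of 0.5, and 2 (OVA comparison) in TPM. At a threshold of 2 they numbered 0, 0, 1 (WT response) and 0 (KO response). With the whole interval past 2-fold they numbered 0 in the OVA comparison, 2 in the WT response and 1 in the KO response, and without the length trend 0 in the OVA comparison. Genes lower numbered 1 (OVA comparison) and 2 (KO response) at a minimum count of 1, and 1 (KO response) at a threshold of 0.5. Beyond the length trend the cause of these moves was not tested, and Wt1, Bnc1 and the other genes with under 100 counts are limited by depth.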
